A study of Mus musculus with 4 samples.

Results

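The genes described here are the 10 that build, load or switch on major histocompatibility complex (MHC) class II in the mouse: H2-Aa, H2-Ab1, H2-Eb1, Cd74, Ciita, H2-DMa, H2-DMb1, H2-DMb2, H2-Oa and H2-Ob. They were taken by symbol, without regard to their values, and all 10 were found among the 32289 features measured. RNA was counted cell by cell in 4 libraries of lung tumours from mice labelled p53frt, Rosa-FSF-CreERT2 and Hnf4aflox, alleles that all 4 groups carried. Tumours were started with an adenovirus in which a surfactant protein C promoter (mSPC) drove the FlpO recombinase, so that initiation was directed to cells using that promoter, and tamoxifen or vehicle was given 10 weeks later. Cells were collected 2 weeks after that, either before or after removal of CD45-positive leukocytes and CD31-positive endothelium on magnetic beads. Each treatment was therefore sampled on both sides of the depletion, which gives 4 groups of 1 library, and no difference below has a replicate check. Both libraries of a treatment were portions of the same suspensions, and the labels do not say how many animals or tumours entered them. Age and sex were not given.

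MHC class II molecules display peptides from the endosomal pathway to CD4+ T cells. The chains H2-Aa and H2-Ab1 pair into I-A, and H2-Eb1 is the beta chain of I-E. Cd74, the invariant chain, guides new dimers to endosomes and blocks their groove until H2-DM (H2-DMa with H2-DMb1 or H2-DMb2) exchanges its remnant for peptide, while H2-O (H2-Oa with H2-Ob) restrains H2-DM. Ciita is the transactivator that turns the set on. Dendritic cells, macrophages and B cells are the classical users, and type 2 alveolar cells, the surfactant-making cells of the lung, are known to carry class II without being professional antigen-presenting cells.

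Of the members, 8 lie in the MHC on chromosome 17 of GRCm38, for example H2-Aa at chr17:34282744-34287823 on the minus strand and H2-Eb1 at chr17:34305867-34316674 on the plus strand, whereas Ciita lies at chr16:10480059-10528418 and Cd74 on neither chromosome. Ciita acts through factors that sit on a short promoter module, of which the Y box is bound by NF-Y. Promoters from 250 bases before to 50 bases after the RefSeq start (GRCm38.p6) were found for 7 of the 10 members, all but H2-Ab1, Cd74 and Ciita. The Y box letters TGATTGG, searched on both strands, were present in 6 of those 7 members (H2-Aa, H2-Eb1, H2-DMb1, H2-DMb2, H2-Oa and H2-Ob, on the gene's own strand in each), and in 7.82% of the 32851 promoters of the table. Neither of the H2-DMa promoters held these letters. H2-Aa and H2-Eb1 are chain genes used by many cell types. H2-Ob and H2-DMb2 stood at higher levels in B cell-like and dendritic cell-like cells than in monocyte or macrophage-like cells. The stretches below are shown because these genes share the motif. They lie upstream of the start, outside annotated exons, at chr17:34287859-34287913 (minus strand), chr17:34305766-34305820, chr17:34238806-34238860 and chr17:34145117-34145171 (plus strand), and the capitals mark the motif, which begins at -50, -61, -59 and -92 relative to the start, for H2-Aa, H2-Eb1, H2-Ob and H2-DMb2. A match is a description of the letters, not a measured binding site.
H2-Aa: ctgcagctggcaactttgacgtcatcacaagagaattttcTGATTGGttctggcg
H2-Eb1: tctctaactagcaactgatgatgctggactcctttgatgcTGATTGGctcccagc
H2-Ob: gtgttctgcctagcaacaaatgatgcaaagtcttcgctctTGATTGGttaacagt
H2-DMb2: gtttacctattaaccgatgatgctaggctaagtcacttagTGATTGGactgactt

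The 4 libraries held from 6558 to 7867 cell barcodes and from 92644997 to 144994771 UMIs (unique molecular identifiers, each standing for 1 captured RNA molecule), and 6111 to 7358 cells were kept. Between 10 and 18 barcodes were shared by any pair of libraries. Hnf4a, the gene targeted by tamoxifen, stood at 46.6 CPM (UMIs per 1000000 UMIs of the class) before and 48.6 CPM after depletion in epithelial-like cells labelled vehicle. Those labelled tamoxifen held 81.3 CPM before and 79 CPM after depletion. That order goes against the labelled deletion, and 3′ counts do not show which exons a transcript holds, so the groups are called by their labels ("labelled tamoxifen", "labelled vehicle"). Exchanged labels and a transcript of the deleted allele cannot be told apart here. Were the labels exchanged, every ratio of tamoxifen over vehicle below would change sign, and "under tamoxifen" and "under vehicle" below mean the libraries so labelled. Cells were named "X-like" from marker genes after clustering without the 10 members, so that no class or cluster was defined by class II itself. Endothelial markers (6 genes) summed to 4543 to 5450 CPM in the endothelial-like class and to 36.1 to 48.3 CPM in the epithelial-like class. B cell markers (6 genes) summed to 4578 and 4762 CPM in B cell-like cells.

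Class II RNA was carried mainly by professional antigen-presenting cells, with epithelial-like cells well below them and above the other structural cells. In the library labelled vehicle before depletion the 10 genes summed to 42145 CPM in dendritic cell-like cells (434 cells), 35328 CPM in monocyte or macrophage-like cells (1240 cells) and 20021 CPM in B cell-like cells (424 cells). The library labelled tamoxifen before depletion gave 40481, 35661 and 20561 CPM. Plasmacytoid dendritic cell-like cells followed at 6503 and 6814 CPM, and alveolar macrophage-like cells at 4969 and 5870 CPM, in the vehicle and tamoxifen libraries. The order of dendritic cells above macrophages depended on the clustering: with the members allowed among the clustering genes, dendritic cell-like cells stood at 26090 and 31246 CPM and monocyte or macrophage-like cells at 38488 and 37841 CPM.

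Epithelial-like cells held 3625 CPM before and 3552 CPM after depletion in the libraries labelled vehicle, and 3412 and 3379 CPM in those labelled tamoxifen (979, 6116, 976 and 6634 cells). All 4 values lie between those of alveolar macrophage-like and endothelial-like cells. The summed level was 8.6% of that in dendritic cell-like cells of the vehicle library and 8.43% in the tamoxifen library, and 13.8% and 10.9% when the clusters were built with the members. The 6 leukocyte genes (Ptprc, Tyrobp, Fcer1g, Laptm5, Coro1a and Cd52) summed to 50.6 and 40.9 CPM in epithelial-like cells before depletion and to 6.96 and 2.17 CPM after it. The class II sum of the depleted libraries was 3552 and 3379 CPM where the leukocyte genes were at these low levels.

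Endothelial-like cells held 1876 and 2185 CPM before depletion and 1552 and 1982 CPM after it, in the vehicle and tamoxifen libraries. After depletion 165 and 122 such cells remained, with 0.641 and 0 CPM of the 6 leukocyte genes. Without doublet removal the vehicle library before depletion held 2858 CPM in place of 1876. Fibroblast-like cells held 1091 and 494 CPM before and 650 and 310 CPM after depletion. Neutrophil-like cells (912 and 975 CPM), NK cell-like cells (561 and 878 CPM) and T cell-like cells (560 and 1303 CPM) are known to make little or no class II in the mouse and give the level against which the others are read.

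**Figure D1:**
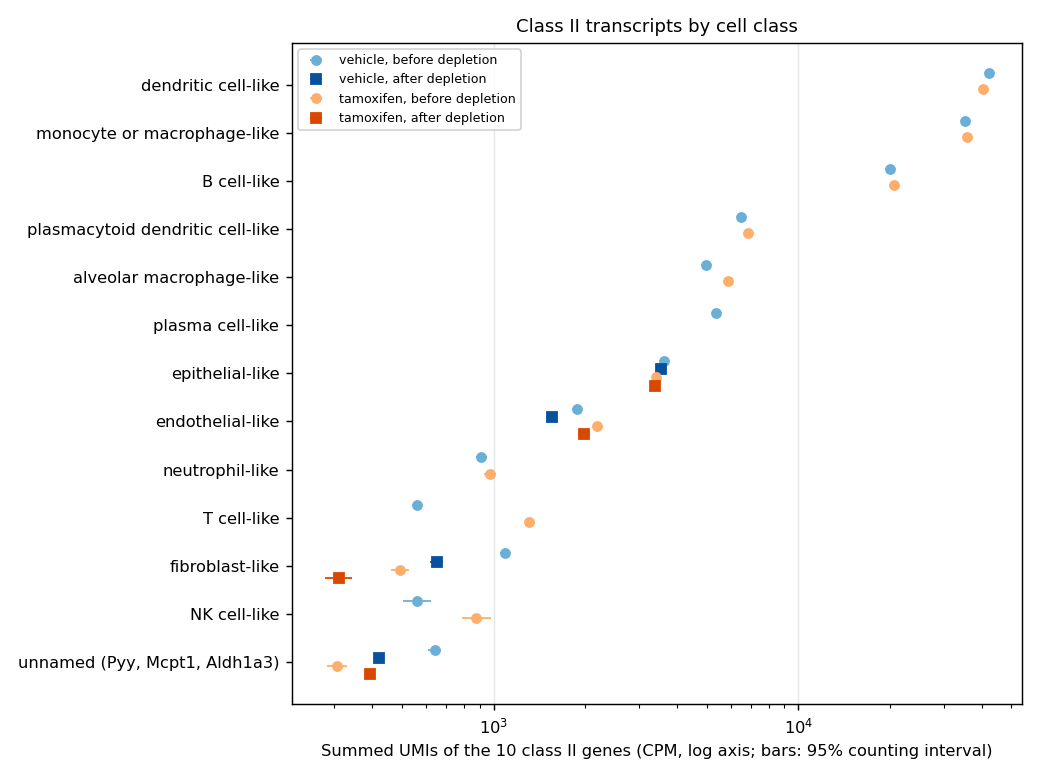
Summed CPM of the 10 class II genes in each cell class, on a log axis. Each point is 1 library (circles before depletion, squares after), and bars are 95% counting intervals. Dendritic cell-like, monocyte or macrophage-like and B cell-like cells stand apart at the top. The 4 epithelial points lie close together between 3379 and 3625 CPM, with both vehicle points above both tamoxifen points.

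The chain genes followed this order one by one. H2-Aa stood at 7189 and 7314 CPM in dendritic cell-like cells, 5936 and 6078 CPM in monocyte or macrophage-like cells, 3643 and 3975 CPM in B cell-like cells and 908 and 1030 CPM in alveolar macrophage-like cells (vehicle, then tamoxifen, before depletion). In epithelial-like cells H2-Aa was 468 and 422 CPM in the libraries labelled vehicle, before and after depletion, and 384 and 356 CPM in those labelled tamoxifen. Both vehicle values lie above both tamoxifen values. H2-Ab1 was 482 and 473 CPM against 403 and 393 CPM in the same libraries, again without overlap. H2-Eb1 was 203 and 218 CPM against 154 and 167 CPM. How many of all genes separate in this way was not counted, and both libraries of a treatment come from the same suspensions. In endothelial-like cells H2-Aa ranged from 172 to 258 CPM, H2-Ab1 from 220 to 336 CPM and H2-Eb1 from 94.3 to 160 CPM, and both treatments overlapped for each.

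Cd74, the invariant chain, had the widest reach. It stood at 18990 and 18931 CPM in dendritic cell-like cells and at 9577 and 10052 CPM in B cell-like cells before depletion. In epithelial-like cells it was 2261, 2237, 2270 and 2275 CPM (vehicle before and after depletion, tamoxifen before and after), so the 4 libraries lay closer together for it than for the chain genes. In plasma cell-like cells, antibody-secreting B lineage cells that switch Ciita off, Cd74 was 3892 CPM with Ciita at 3.11 CPM and H2-Aa at 402 CPM (50 cells, vehicle before depletion).

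Ciita itself was 169 and 130 CPM in B cell-like cells, 169 and 154 CPM in dendritic cell-like cells and 111 and 87.9 CPM in monocyte or macrophage-like cells, for vehicle and tamoxifen. Epithelial-like cells held 23.1, 16.7, 22.7 and 19.5 CPM of Ciita, under the 23.4 and 28.8 CPM of alveolar macrophage-like cells. Endothelial-like cells held 10.3 to 16.8 CPM. Neutrophil-like and T cell-like cells held 3.75 to 6.57 CPM.

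The peptide-editing genes divided the cells in another way. H2-DMa was 1185 and 980 CPM in dendritic cell-like cells, 408 and 458 CPM in B cell-like cells and 72.1 to 81.4 CPM over the 4 epithelial-like values. Between the beta chains, H2-DMb1 was 595 and 561 CPM in dendritic cell-like cells and 163 and 159 CPM in B cell-like cells, whereas H2-DMb2 was 327 and 281 CPM in the former and 398 and 383 CPM in the latter. H2-DMb1 in epithelial-like cells was 86.2 to 96.6 CPM and H2-DMb2 7.54 to 10.2 CPM. H2-DMb1 and H2-DMb2 are close copies, so reads may have been divided unevenly between them in the deposited counts. The H2-O chains stood at a higher level in B cell-like cells than in the myeloid classes. H2-Ob was 389 and 341 CPM in B cell-like cells, 60.9 and 61.1 CPM in dendritic cell-like cells and 19.4 and 18.6 CPM in monocyte or macrophage-like cells. H2-Oa followed with 223 and 270, 94.5 and 116, and 19.9 and 13.9 CPM in those 3 classes, and plasmacytoid dendritic cell-like cells held 58.8 and 66.9 CPM of it. Counted in UMIs, dendritic cell-like cells held more H2-Oa (831 and 626) than B cell-like cells (549 and 298). In epithelial-like cells H2-Oa was at most 1.07 CPM and H2-Ob at most 0.366 CPM. The whole depleted libraries held 18 and 10 UMIs of H2-Ob, against 2085 and 1125 before depletion.

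Before depletion, monocyte or macrophage-like cells supplied 55.2% and 51.6% of all class II UMIs of the kept cells in the libraries labelled vehicle and tamoxifen, and dendritic cell-like cells 26.5% and 21.3%. Epithelial-like cells supplied 7.09% and 10%, from 13.8% and 16% of the cells. B cell-like cells supplied 3.53% and 2.22%, and alveolar macrophage-like cells 5.07% and 11.4%. After depletion epithelial-like cells supplied 96.9% and 98.2%.

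Within the myeloid classes the level was far from even. Macrophage-like cells led by C1qc, C1qa and C1qb, subunits of complement C1q, held 36830 and 38516 CPM, against 3650 and 3689 CPM in the monocyte-like cluster led by Adgre4, F13a1 and Ifitm6. The monocyte-like cluster was therefore nearer to epithelial-like cells than to the other macrophages. Among alveolar macrophage-like cells, the proliferating cluster (Pclaf, Mki67, Top2a) held 3367 and 3214 CPM and the main cluster (Chil3, Ear10, Ear2) 5143 and 6163 CPM. Dendritic cell-like cells led by Cd207 and Xcr1 (57 cells, tamoxifen before depletion) held 40978 CPM and those led by Ccl22 and Ccl17 40328 CPM in the same library. H2-Ob stood at 120 and 43.1 CPM and H2-DMb2 at 147 and 322 CPM in these clusters. Dendritic cell markers (8 genes) summed to 1701 and 1387 CPM in them. Monocyte or macrophage markers (9 genes) summed to 217 and 1703 CPM, so in the Ccl22-led cluster they exceeded the dendritic cell markers.

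Class II in endothelial-like cells was concentrated in few cells. Their median cell held 585, 531, 958 and 393 CPM of the 10 genes (vehicle before and after depletion, tamoxifen before and after) and the cell at the 90th percentile 5304, 5180, 7138 and 6903 CPM. The 10% of cells with the most class II carried 45.8% to 58.2% of the class's UMIs. In B cell-like cells the top 10% carried 21.3% and 22.9%, and the median cell (21744 and 21610 CPM) stood close to the class's summed level.

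To compare how many cells carried a transcript at equal depth, each cell was thinned to 2000 UMIs and shallower cells were left out (67, 129, 11 and 53 epithelial-like cells in the order vehicle before and after depletion, tamoxifen before and after). A UMI of H2-Aa, H2-Ab1 or H2-Eb1 was then found in 74.5%, 65.8%, 68.5% and 65.5% of epithelial-like cells. It was found in 100% of B cell-like cells of both undepleted libraries, in 95.8% and 96.2% of dendritic cell-like cells and in 45.1%, 37%, 56.7% and 45% of endothelial-like cells. As background, neutrophil-like cells gave 32.8% and 22.4%, T cell-like cells 23.2% and 22.1%, and fibroblast-like cells 7.34% to 23.7%. The median neutrophil-like cell had 3426 and 3622 UMIs before thinning, and the median epithelial-like cell 16493 to 28266. For Cd74 the shares were 84.8%, 81.2%, 87.7% and 86.6% of epithelial-like cells, against 29.5% and 35% of neutrophil-like cells. Without thinning, 94.2% to 98.2% of epithelial-like cells carried Cd74.

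**Figure D2:**
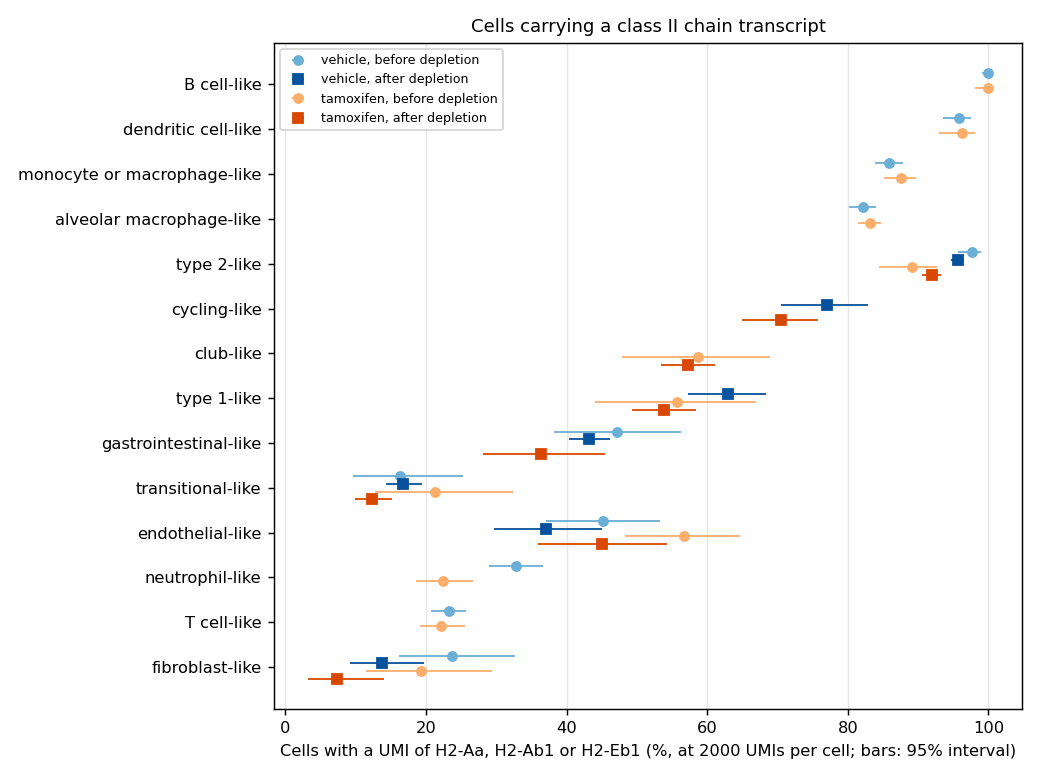
Share of cells with a UMI of H2-Aa, H2-Ab1 or H2-Eb1 after thinning to 2000 UMIs per cell, by class or epithelial state. Points are libraries and bars exact 95% binomial intervals; type 2-like cells lie between 89.1% and 97.6%, and transitional-like cells, at 12.3% to 21.3%, lie below the 22.1% to 32.8% of T cell-like and neutrophil-like cells.

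Among epithelial states, type 2-like cells carried the most class II. The 10 genes summed to 6580 and 7667 CPM in type 2-like cells of the libraries labelled vehicle, before and after depletion, and to 5939 and 6100 CPM in those labelled tamoxifen. All other epithelial-like cells together held 2286 and 2355 CPM, and 2884 and 2868 CPM. Type 2-like cells were therefore 2.88-fold (95% counting interval 2.84 to 2.91), 3.26-fold (3.24 to 3.27), 2.06-fold (2.03 to 2.09) and 2.13-fold (2.11 to 2.14) above the rest. H2-Aa showed the widest gap of the chains (973 against 239 CPM in the vehicle library before depletion, 4.07-fold), and H2-DMb1 the narrowest of the members above 10 CPM (134 against 78.6 CPM, 1.7-fold). Ciita differed 2.59-fold there (40.1 against 15.4 CPM). H2-DMb2 reached 19.7 to 22.2 CPM in type 2-like cells and 4.28 to 5.67 CPM in the rest.

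The transitional-like state, led by Serpinb2, Procr and Pyy, held the least of the named states: 597, 693, 745 and 633 CPM (vehicle before and after depletion, tamoxifen before and after). Its Ciita level was 2.37 to 3.76 CPM, and its share of cells with a chain UMI did not exceed that of neutrophil-like cells. Gastrointestinal-like cells, which express gut genes such as Agr2, held 1895, 1891 and 1616 CPM where 50 or more were present. Type 1-like cells, the flat gas-exchange cells, held 3682 CPM in the vehicle library after depletion and 3101 and 2907 CPM in the tamoxifen libraries, and cycling-like cells 3934 and 3142 CPM after depletion. Club-like cells, a secretory airway state, reached 50 cells only in the tamoxifen libraries, at 2921 and 2955 CPM. An unnamed cluster outside the epithelial-like class, led by Pyy, Mcpt1 and Aldh1a3 and with epithelial markers at 11448 to 16928 CPM, held 641, 420, 307 and 393 CPM.

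Clusters differed within a state. The highest epithelial level, 10975 CPM, was in a type 2-like cluster led by the interferon-inducible genes Iigp1, Ly6i and Ubd, which reached 50 cells only in the library labelled tamoxifen after depletion (56 cells). It held 6461 CPM of Cd74, 1574 CPM of H2-Aa, 59.2 CPM of Ciita, 114 CPM of H2-DMb2 and 29 CPM of H2-Oa. All 6 leukocyte genes were at 0 in those cells, where 3 UMIs would amount to 3.48 CPM each, and 55 of 56 carried a chain UMI at 2000 UMIs per cell. Near the other end, the gut genes Tff3, Guca2a and Spink4 led a gastrointestinal-like cluster with 627 CPM (185 cells, vehicle after depletion). A cluster of unnamed state led by Mcpt2, Muc5b and Ly6d held 5408, 5092, 4542 and 4247 CPM, in each library the highest of the clusters outside the type 2-like state. It matched the type 2 markers best, at a mean standardized level of 0.73. It stayed unnamed because the club marker Cyp2f2, but no type 2 marker, was among its leading genes.

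**Figure D3:**
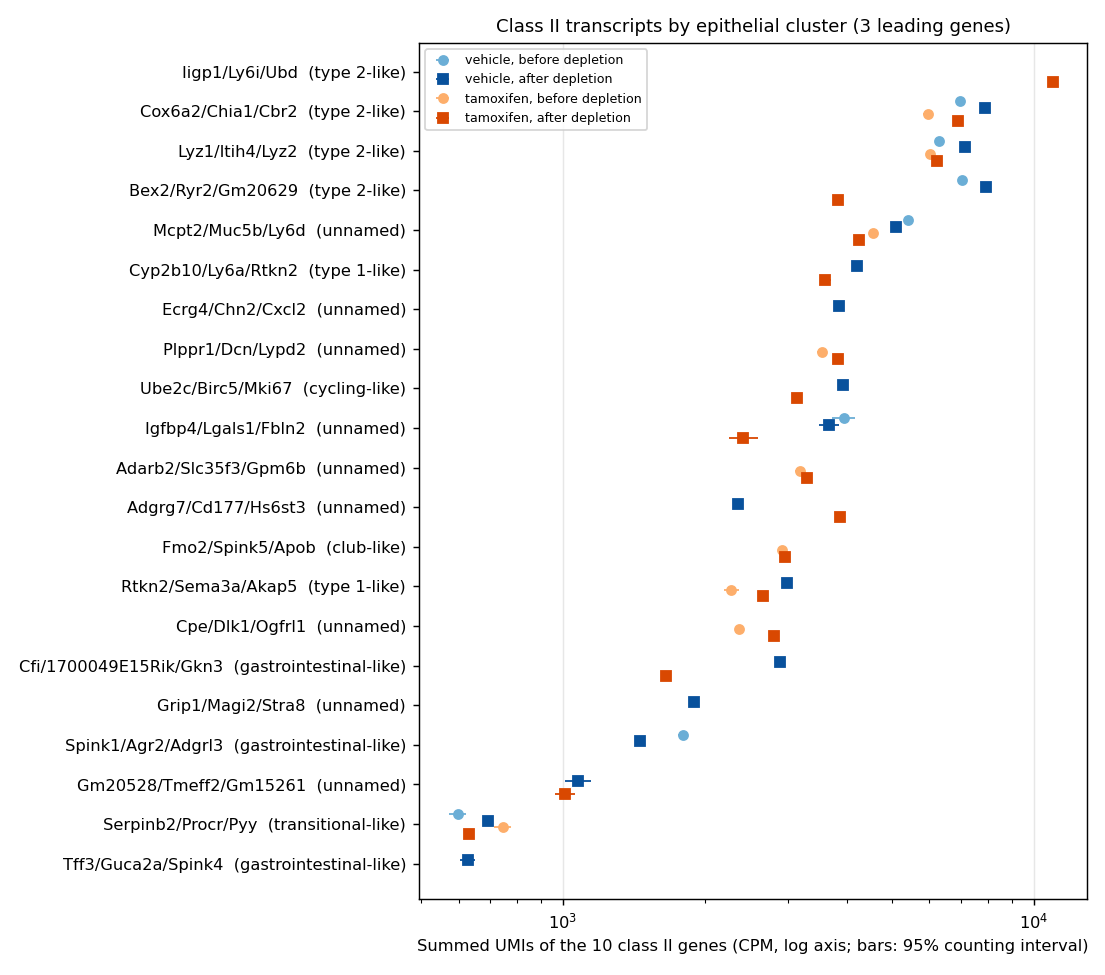
Summed CPM of the 10 class II genes in each epithelial cluster, named by its 3 leading genes with its state in brackets, on a log axis. Points are libraries with 50 or more cells of the cluster and bars 95% counting intervals; values run from 597 to 10975 CPM, and the Bex2-led and Cfi-led clusters show the 2 treatments far apart.

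Treatment groups were compared as log2 of the library labelled tamoxifen over the library labelled vehicle, separately before and after depletion, with a pseudocount of 1 CPM. Genes that differed at least 2-fold, with 10 CPM or more on the higher side, are called apart, which is a rule of size and not a test. In epithelial-like cells 0 of the 8 members that reached 10 CPM before depletion and 0 of 7 after it were apart, where 2% of 9282 and 1.92% of 9115 genes were. The summed log2 ratio was -0.09 (95% counting interval -0.10 to -0.07) before and -0.07 (-0.08 to -0.07) after depletion. The median over the members at 10 CPM was -0.21 and -0.16, beside -0.03 and 0.01 over all genes tested. H2-Eb1 had the lowest ratios of the chains, -0.39 in both pairs, followed by H2-Aa at -0.29 and -0.24 and H2-Ab1 at -0.26 and -0.27. Cd74 stood at 0.01 and 0.02. In cells with no UMI of the 6 leukocyte genes the summed ratio was -0.34 before depletion, a larger difference than in all epithelial-like cells. Cells with fewer UMIs pass that filter more easily, so it can also change depth and the make-up by state. Type 2-like cells were 44% and 24.6% of all epithelial-like cells before depletion under vehicle and tamoxifen. The part of depth and make-up was not tested.

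In type 2-like cells 0 of 8 members were apart in either pair (0.89% and 0.489% of all genes tested), and the summed ratio was -0.15 before and -0.33 after depletion. H2-Eb1 was 359 and 458 CPM in the vehicle libraries against 235 and 265 CPM in the tamoxifen libraries, log2 ratios of -0.61 (-0.71 to -0.52) and -0.79 (-0.84 to -0.74). H2-Aa was 973 and 1087 against 830 and 828 CPM, and Cd74 4021 and 4681 against 3807 and 3914 CPM. No value of the tamoxifen libraries reached one of the vehicle libraries for these 3 genes, nor for H2-Ab1, H2-DMa and H2-DMb1. Ciita (40.1 and 32.3 against 34.5 and 26.6 CPM) and H2-DMb2 (20.8 and 21.6 against 22.2 and 19.7 CPM) overlapped. The share of all genes that separate in this way was not counted.

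The other states, pooled, went the opposite way, with summed ratios of 0.34 before and 0.28 after depletion and 0 of 7 members apart in each pair (2.87% and 2.67% of genes). Their make-up differed between the libraries: after depletion gastrointestinal-like cells were 19.4% of epithelial-like cells under vehicle and 1.96% under tamoxifen, transitional-like cells 14.4% and 10.1%, and club-like cells 0.311% and 9.78%. Within each of 5 states that held 50 cells in both depleted libraries (type 1-like, transitional-like, gastrointestinal-like, cycling-like and unnamed) the summed level was lower under tamoxifen, with ratios of -0.34, -0.13, -0.23, -0.32 and -0.09. The gastrointestinal-like and unnamed cells did not lie in the same clusters, however. Of the depleted libraries, vehicle held 535 and tamoxifen 3 cells of the gastrointestinal-like cluster led by Spink1, and 185 and 10 of that led by Tff3. Among unnamed clusters the Grip1-led one held 309 and 6 cells, the Cpe-led one 5 and 912, the Adarb2-led one 32 and 478 and the Plppr1-led one 18 and 326. For these states the ratio therefore compares different clusters. The pool also held unnamed clusters that matched the type 2 markers best, led by Mcpt2, Adarb2, Plppr1 and Ecrg4. In the tamoxifen library after depletion the type 2 markers summed to 134613 CPM in the Plppr1-led and 86959 CPM in the Adarb2-led cluster. The Bex2-led cluster, called type 2-like, held 134168 CPM there. The part of this placement in the opposite direction was not tested. Cluster by cluster, 8 of the 9 outside the type 2-like state with 50 cells in both depleted libraries were lower under tamoxifen and 1 was higher, with ratios from -0.81 to 0.72. Weighting the tamoxifen levels of these 5 states by their UMI shares in the vehicle library, a choice made after seeing the data, turned the ratio from 0.28 to -0.17. Before depletion no such weighting was made, since only the transitional-like and unnamed states held 50 cells in both libraries. There the former had a ratio of 0.32, the same direction as the pooled states, and the latter held 3309 and 3300 CPM.

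Single clusters showed larger differences after depletion. In the type 2-like cluster led by Bex2 and Ryr2 the sum was 7896 CPM under vehicle (402 cells) and 3832 CPM under tamoxifen (260 cells), and before depletion it was 7044 CPM under vehicle. There 4 of 8 members were apart, all lower, beside 3.21% of genes apart in either direction and 1.68% lower. These were H2-Ab1 (1327 to 477 CPM, log2 ratio -1.47), H2-Eb1 (-1.43), H2-Aa (-1.20) and H2-DMb1 (-1.02). In the gastrointestinal-like cluster led by Cfi, 3 of 7 members were apart and lower, beside 1.57% of genes: H2-Ab1 (432 to 143 CPM), H2-Eb1 (206 to 79.5 CPM) and H2-Aa (256 to 102 CPM). In a cluster of unnamed state led by Igfbp4 and Lgals1 (141 and 57 cells) the sum was 3668 and 2416 CPM, and 2 of 7 members were apart and lower, H2-Aa (417 to 188 CPM) and H2-Ab1 (586 to 263 CPM). There 29.3% of genes were apart and lower and the median over all genes tested was -0.48, so the members' share is near the background. The cluster led by Adgrg7 and Cd177 went the other way, from 2356 to 3882 CPM, with 0 of 7 members apart (5.65% of genes) and all 7 higher. The median log2 ratio there was 0.65 over these members and 0.02 over all genes tested. In the largest type 2-like cluster (Lyz1, Itih4, Lyz2; 1117 and 679 cells) the sum was 7144 and 6233 CPM, and 0 of 8 members were apart (0.242% of genes).

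**Figure D4:**
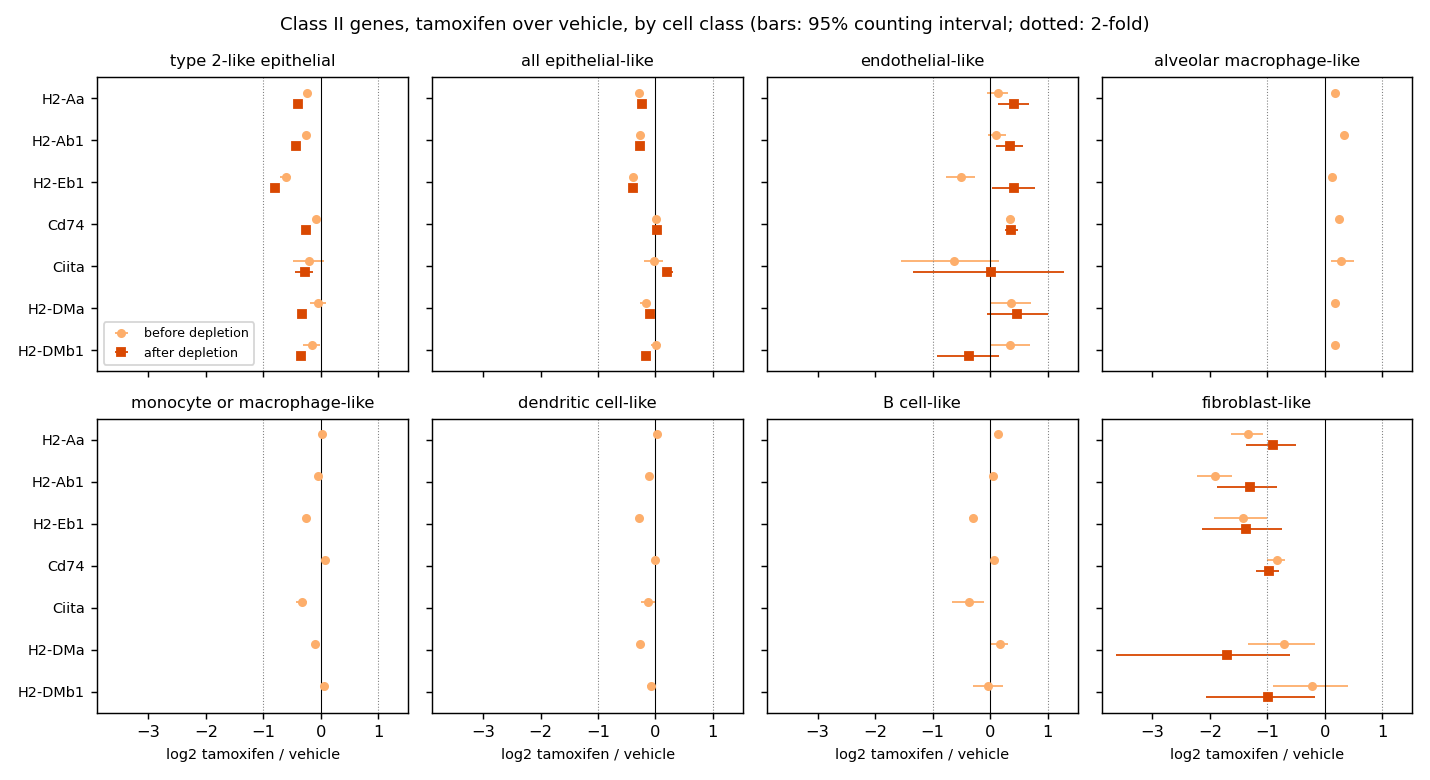
Log2 ratio of tamoxifen over vehicle for 7 class II genes in 8 cell groups, shown where the gene reached 10 CPM. Circles are the pair before depletion, squares the pair after, bars 95% counting intervals and dotted lines a 2-fold difference. H2-Eb1 lies to the left of H2-Aa in both type 2-like pairs, and of the 8 groups fibroblast-like cells alone have points beyond the lower dotted line.

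Taken as whole classes, the classical antigen-presenting cells differed little between the undepleted libraries. The summed ratio was 0.01 (0.01 to 0.02) in monocyte or macrophage-like cells, -0.06 (-0.07 to -0.05) in dendritic cell-like cells, 0.04 (0.02 to 0.06) in B cell-like cells and 0.24 (0.23 to 0.25) in alveolar macrophage-like cells. The dendritic cell-like direction turned with the clustering, to 0.26 with clusters built with the members, 0.36 at a Leiden resolution of 0.5 and 0.27 with doublets kept. None of their members was apart: 0 of 10 in monocyte or macrophage-like cells (0.937% of genes tested), 0 of 10 in dendritic cell-like cells (1.54%), 0 of 10 in B cell-like cells (5.55%) and 0 of 8 in alveolar macrophage-like cells (0.507%). In alveolar macrophage-like cells all 8 members that reached 10 CPM were higher under tamoxifen, H2-DMb2 the most (22.1 and 37.2 CPM, log2 ratio 0.73). Their median log2 ratio was 0.22, beside -0.03 over all genes tested. In the proliferating alveolar macrophage-like cluster 5 of 8 members were lower, with a median of -0.04 beside -0.02 over all genes. The proliferating monocyte or macrophage-like cluster (Top2a, Hist1h1b, Mki67) held 101 and 54 cells. There all 10 members were lower, with a median of -0.31 beside -0.01 over all genes. Ciita was lower in B cell-like cells (-0.37, -0.66 to -0.10) and in monocyte or macrophage-like cells (-0.33, -0.43 to -0.23). Endothelial-like cells had summed ratios of 0.22 (0.16 to 0.28) before and 0.35 (0.26 to 0.44) after depletion, with 0 of 7 members apart in each pair (4.17% and 5.52% of genes). Neither difference held with doublets kept and the cells clustered again, where the ratio was -0.40 before depletion (2858 CPM under vehicle and 2170 CPM under tamoxifen) and -0.00 after it. In the endothelial-like cells of the main clustering Cd74 was 1025 and 1305 CPM before and 940 and 1218 CPM after depletion. Both tamoxifen values lie above both vehicle values, and the share of all genes that separate in this way was not counted. Epithelial markers (8 genes, none at 0) summed to 1661 and 4460 CPM in endothelial-like cells before and to 6408 and 2157 CPM after depletion, and alveolar macrophage markers (8 genes) to 122 and 326 CPM before and 55.2 and 81.7 CPM after depletion. Of the latter list, Chil3 was 47.4 and 176 CPM and Car4, which lung capillary endothelium also expresses, 50 and 88.1 CPM before depletion. After it 6 of the 8 were at 0 in both libraries, Chil3, Marco and Siglecf among them, and Car4 stood at 51.3 and 74.8 CPM. Monocyte or macrophage markers (9 genes) summed to 235 and 85.3 CPM before and 92.4 and 97.9 CPM after depletion, and dendritic cell markers (8 genes) to 247 and 228 CPM and to 213 and 175 CPM. After depletion 6 and 7 of the 9 and 3 and 5 of the 8 were at 0, so few genes carried those sums. The part of these lists in the ratios was not tested.

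H2-Eb1 stood lower relative to H2-Aa under the tamoxifen label in several classes. Per 100 UMIs of H2-Aa, the undepleted libraries labelled vehicle and tamoxifen held 60.1 (95% counting interval 59.3 to 60.9) and 48.5 (47.6 to 49.3) of H2-Eb1 in dendritic cell-like cells, and 56 (55.5 to 56.5) and 45.8 (45.3 to 46.4) in monocyte or macrophage-like cells. B cell-like cells held 53.6 (51.7 to 55.5) and 40 (37.8 to 42.3). Type 2-like cells held 37 (35.4 to 38.5) and 28.3 (26.6 to 30.2) before depletion and 42.2 (41.3 to 43.1) and 32 (31 to 33.1) after it. In these 4 groups the intervals of the treatments do not overlap. Alveolar macrophage-like cells held 34.5 and 33.1 with overlapping intervals, and endothelial-like cells 68.3 and 43.3 before but 54.9 and 54.8 after depletion. The proportion also varied between epithelial states of 1 library: after vehicle and depletion it was 42.2 in type 2-like, 47.2 in type 1-like, 58.2 in cycling-like, 71.9 in transitional-like and 81.8 in gastrointestinal-like cells. Within a library, neutrophil-like cells, at 54.7 (46 to 65) under vehicle and 47.6 (38.5 to 58.5) under tamoxifen, overlapped monocyte or macrophage-like cells, and type 2-like cells did not.

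**Figure D5:**
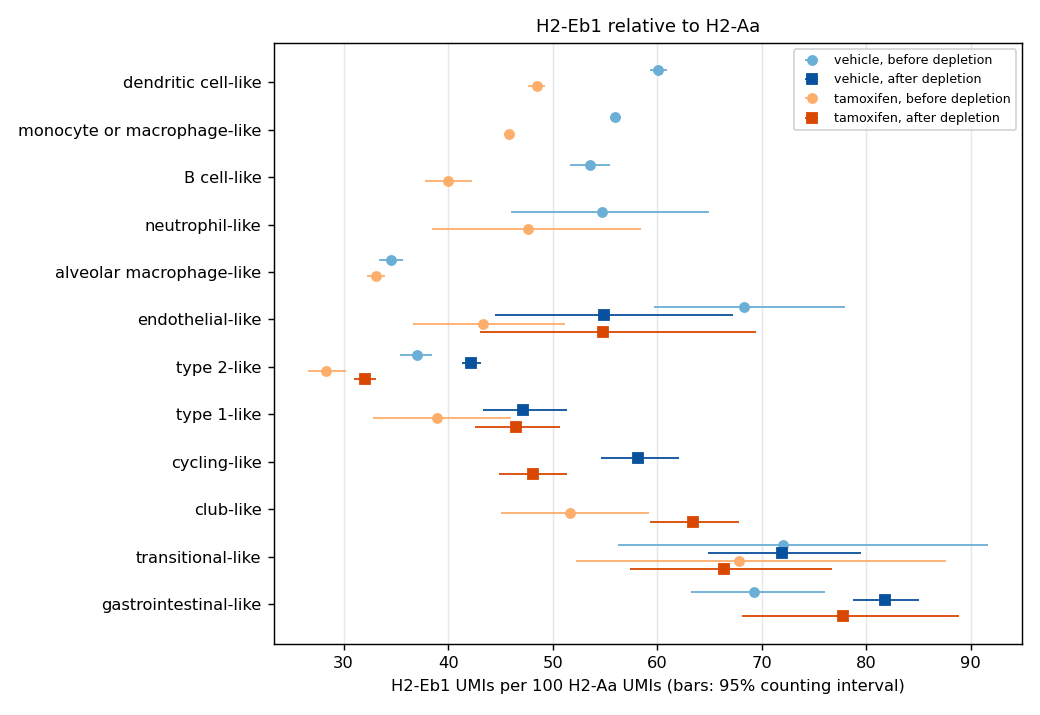
H2-Eb1 UMIs per 100 H2-Aa UMIs by class or epithelial state, with 95% counting intervals; each point is 1 library. Vehicle points lie to the right of tamoxifen points in dendritic cell-like, monocyte or macrophage-like, B cell-like and type 2-like cells, and type 2-like (28.3 to 42.2) and gastrointestinal-like cells (69.3 to 81.8) do not overlap.

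Summed class II differed at least 2-fold between the treatment labels in T cell-like and fibroblast-like cells and, before depletion, in the unnamed cluster led by Pyy, all of which carry little of it. In T cell-like cells 5 of the 7 members that reached 10 CPM were apart and higher under tamoxifen, beside 1.23% of genes: Cd74 (290 and 684 CPM), H2-Aa (80.2 and 202 CPM), H2-Ab1 (79.7 and 208 CPM), H2-Eb1 (42.2 and 93.8 CPM) and H2-DMb1 (11 and 27.6 CPM). The difference lay in few cells, since the median cell held 256 and 278 CPM and the top 10% of cells carried 64.5% and 84.8% of the UMIs. It was widest in the cluster led by Cd163l1, Trdc and Il17a, genes of interleukin 17-producing gamma delta T cells, at 902 CPM (104 cells) and 5592 CPM (57 cells), with 9 of 10 members apart and higher (7.91% of genes). Monocyte or macrophage markers (9 genes, 0 and 1 of them at 0) summed to 233 and 671 CPM in that cluster, dendritic cell markers (8 genes, 4 and 1 at 0) to 157 and 237 CPM and B cell markers (6 genes, 2 and 1 at 0) to 19.9 and 76 CPM. Over all T cell-like cells these lists summed to 221 and 291, 332 and 334, and 9.14 and 22.2 CPM, and epithelial markers to 2362 and 4915 CPM. Their part in the result was not tested. The regulatory T cell genes Tnfrsf4, Ctla4 and Ikzf2 led a cluster at 576 and 1381 CPM, with 6 of 8 members apart and higher (2.33% of genes). The median cell of that cluster held 385 and 434 CPM, and the top 10% of its cells carried 50.8% and 78.9% of the UMIs. There monocyte or macrophage markers summed to 208 and 150 CPM, dendritic cell markers to 410 and 289 CPM and B cell markers to 13.9 and 10.3 CPM. These sums were lower under tamoxifen, but the median monocyte or macrophage marker was higher (3.67 and 7.49 CPM). In the T cell-like cluster led by Lef1 the dendritic cell list summed to 442 and 533 CPM at medians of 0.682 and 2.27 CPM, so few genes carried it. Epithelial markers are not given for the Tnfrsf4-led cluster, and the part of RNA from other cells in the result was not tested.

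In fibroblast-like cells 3 of 6 members were apart and lower under tamoxifen in each pair (2.57% of genes before and 3.08% after depletion). H2-Ab1 was 237 and 62.6 CPM before and 77 and 30.4 CPM after depletion, and H2-Eb1 81.9 and 29.8 CPM and 45.8 and 17.2 CPM. The third was H2-Aa before depletion (193 and 75.7 CPM) and H2-DMa after it (15 and 3.9 CPM). The top 10% of fibroblast-like cells carried 80% to 91.7% of the UMIs. The summed class II ratios were -1.14 before and -1.07 after depletion. Leukocyte genes summed to 381 and 181 CPM before depletion, and to 9.24 and 10.9 CPM after it. Monocyte or macrophage markers summed to 184 and 72.1 CPM before and 46.2 and 47.6 CPM after depletion, where 6 and 2 of the 9 genes were at 0. Epithelial markers summed to 309 and 5710 CPM before and 14571 and 6773 CPM after depletion. The part of these 3 lists in the class II ratios was not tested. In the unnamed cluster led by Pyy, 3 of 6 members were apart and lower before depletion (4.53% of genes; 641 and 307 CPM summed, leukocyte genes 211 and 136 CPM). After depletion 0 of 6 were apart there (2.32% of genes; 420 and 393 CPM).

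Other genes of the pathway were taken from 4 lists and examined in epithelial-like cells. Beside the 2% and 1.92% of all genes that were apart, none of those that reached 10 CPM was in either pair. They were 0 of 9 class II partners, 0 of 6 genes of the interferon-gamma input and 0 of 8 class I genes. The costimulatory genes Cd80, Cd86, Cd40 and Icosl all lay between 0.057 and 1.75 CPM. They stayed under 10 CPM, so the rule could not call them. Median log2 ratios of the 4 lists lay between -0.21 and -0.03, beside -0.03 and 0.01 over all genes. Of the partners, Ctsl, a cathepsin that degrades Cd74, was 281 and 378 CPM under vehicle and 211 and 260 CPM under tamoxifen, and Ifi30, a thiol reductase of the endosome, 165 and 199 CPM and 165 and 180 CPM. Ctss, the cathepsin that trims Cd74 in professional cells, was 2513 and 2843 CPM in monocyte or macrophage-like cells and 9.17 and 7.82 CPM in epithelial-like cells before depletion (0.925 and 0.684 CPM after it). Of the interferon-gamma input, the receptor-bound kinase Jak1 was 89.1 and 82.3 CPM against 70.1 and 78.2 CPM, and the receptor chain Ifngr2 55.8 and 55.6 CPM against 50.8 and 45.1 CPM. Ifng itself was seen at 201 and 435 CPM in NK cell-like and 104 and 117 CPM in T cell-like cells. Of class I, H2-D1 was 570 and 586 CPM against 484 and 470 CPM and H2-K1 544 and 500 CPM against 455 and 452 CPM in epithelial-like cells.

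Genes whose level followed the chain genes and Cd74 were ranked by Pearson's r with their mean log2 level. Over 29 class-by-library values and 13585 genes the 10 most alike were Gm20513 (r = 0.896), Ifi30 (0.887), Pkib (0.864), Gdi2, Dnase1l3, Fgd2, Lactb, Nufip1, Gm6377 and Erp29 (0.794). Gm20513 is annotated antisense to H2-Eb1 and overlaps it, and since use of strand is not given in the sources used here their reads cannot be told apart. Ciita reached 0.936 on this measure, H2-Oa 0.740 and H2-Ob 0.734. Over 49 epithelial cluster-by-library values and 12210 genes the 10 were Smim1 (0.893), Tmem50b (0.892), Psmb9 (0.885), Muc1, Tmem38b, Psmb8, Sftpd, Plaat3, Tmem42 and Ldhb (0.854). Psmb8 and Psmb9 are immunoproteasome subunits of the class I pathway, and Sftpd is a surfactant protein of type 2 cells. Ciita reached 0.744 among epithelial clusters and H2-Ob 0.202. These values describe points that share libraries and cells, and they carry no test.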

How the data were processed

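The authors deposited UMI counts per gene and cell barcode, whole numbers that are not normalized. UMIs of 3′ ends are not scaled by gene length. Cell Ranger 7.0.1 wrote them, per the file headers, whereas per the submitters' processing notes Cell Ranger 7.2.0 and mm10 were used. The sources used here give neither the annotation release nor the use of strand and intronic reads. One further allele named in the labels is not reported here.

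Cells with at least 200 genes, at most 20% mitochondrial UMIs and a Scrublet doublet score under 0.25 were kept (scanpy 1.11.5; expected doublet rate 0.06). Scrublet's automatic threshold called 224, 3, 99 and 0 cells, so it had not worked after depletion, and the fixed score, which removed 224, 120, 116 and 153, replaced it after that failure. Clustering used 2000 variable genes without the members, 40 components, 15 neighbours and Leiden resolution 1 (leidenalg 0.10.2). Names needed 3 markers seen in 10% of cells, and no more markers of another list than of their own among the 10 leading genes. States also needed a mean standardized marker level of 0.5. An epithelial cluster of 103 cells with at least 2 of 6 leukocyte genes among its 10 leading genes was kept out, a choice made after seeing the data. UMIs were summed per class or cluster of 50 or more cells and library and scaled to CPM. Intervals are 95% (exact Poisson, conditional binomial without the pseudocount, Clopper-Pearson) and, like the floor of 3 counts, cover counting error only. The pairs before and after depletion do not replicate each other, and no p-values were computed. Simulated counts were used to test the rule of size. TMM factors came from edgeR 4.0.16 as an alternative. All 10 members are named, with the genes of each list that were apart in both pairs or among its 2 highest in epithelial-like cells, and the 10 genes most alike in each ranking. Ctss and Ifng fall outside that rule and were chosen after their values were seen. The members, lists and markers were chosen with earlier results of these data known. Coordinates come from GENCODE M21 (GRCm38), which matched 32235 of 32289 features by identifier.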

Additional observations from a re-analysis of the deposited data

Results flagged for a closer look

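Summed class II moved in opposite directions between the treatment labels in both pairs of libraries for 3 pairs of cell groups. The differences are given as the log2 ratio of tamoxifen over vehicle in the first group minus that in the second, and none was tested, since each group held 1 library. Type 2-like cells against the other epithelial-like states differed by -0.48 before and -0.61 after depletion. The pooled other states differed in make-up between libraries and included unnamed clusters that matched the type 2 markers best. After depletion, 5 of them with the tamoxifen levels weighted as in the vehicle library had a ratio of -0.17, the direction of type 2-like cells. Before depletion that weighting was not made, and the 2 states that could be compared did not share that direction beyond counting error (0.32 in transitional-like cells, 3309 and 3300 CPM in the unnamed state). Endothelial-like against all epithelial-like cells differed by 0.31 and 0.43, and endothelial-like against fibroblast-like cells by 1.36 and 1.42. With doublets kept and the cells clustered again the endothelial-like ratio itself was -0.40 before depletion (2858 CPM under vehicle, 2170 CPM under tamoxifen) and -0.00 after it. The before and after values come from the same suspensions.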

How the results depend on the processing

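No paired analysis was possible because each group has 1 library and the labels give no shared replicate numbers, and for the same reason no replicate could be left out. Of 177 recomputed log2 ratios of tamoxifen over vehicle, 158 kept their sign and 114 stayed within the counting interval, and all 14 recomputed ratios of type 2-like cells over other states kept their sign. The 19 that did not keep it were 11 of Cd74, H2-DMb1 and Ciita in epithelial-like cells, for which no direction is drawn, 3 each of the monocyte or macrophage-like and dendritic cell-like sums, and 2 of the endothelial-like sum. In addition, the sum over states other than type 2 after depletion was 0.28 pooled and -0.17 weighted by states. Depth limits H2-Oa and H2-Ob outside leukocytes. The causes of the shifts below were not tested.

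The summed epithelial ratio of -0.09 before depletion became -0.04 with TMM scaling, -0.19 as a mean over cells, -0.10 without doublet removal, -0.34 in cells with no leukocyte UMI and -0.13 without the cluster led by Iigp1. The ratio of -0.07 after depletion became -0.05 with TMM scaling, -0.23 as a mean over cells and -0.16 in cells with no leukocyte UMI. Epithelial-like cells as a percentage of dendritic cell-like cells, 8.6 and 8.43 in the vehicle and tamoxifen libraries, were 13.8 and 10.9 with clusters built with the members, 15.7 and 11.3 at a Leiden resolution of 0.5, and 16 and 11.9 without doublet removal. The log2 ratio of type 2-like over other states in the vehicle library before depletion, 1.52, became 1.30 in cells with no leukocyte UMI, 1.24 as a mean over cells, 1.49 without the Bex2-led cluster and 1.47 with the mixed cluster, the last 2 added after seeing the data. After depletion it went from 1.70 to 1.64, 1.54 and 1.69 under the first 3 of these. In the tamoxifen library before depletion it went from 1.04 to 0.90 as a mean over cells, 1.17 without the Bex2-led cluster and 1.02 with the mixed cluster, and after depletion from 1.09 to 1.13 and 1.24 under the first 2. Ratios of tamoxifen over vehicle as a mean over cells were 0.23 in alveolar macrophage-like, 0.09 in monocyte or macrophage-like, -0.07 in dendritic cell-like and 0.01 in B cell-like cells before depletion and 0.26 in endothelial-like cells after it. With TMM scaling they were 0.04, -0.01 and 0.15 in monocyte or macrophage-like, dendritic cell-like and B cell-like cells. Ratios with other clusterings were added after seeing the data. Clusters built with the members gave 0.26 in dendritic cell-like and -0.02 in monocyte or macrophage-like cells. A Leiden resolution of 0.5 gave -0.12 and -0.10 in epithelial-like cells before and after depletion, 0.36 in dendritic cell-like, 0.26 in alveolar macrophage-like and -0.08 in monocyte or macrophage-like cells. Doublets kept and cells clustered again gave -0.16 and -0.10 in epithelial-like cells, 0.27 in dendritic cell-like and -0.03 in monocyte or macrophage-like cells, and -0.40 and -0.00 in endothelial-like cells. With no minimum CPM, 1 member rather than 0 was apart in endothelial-like cells before depletion. The share of epithelial-like cells with a Cd74 UMI was 96.4%, 94.2%, 98.2% and 96.2% without thinning and 89.5%, 87.0%, 93.5% and 92.5% at 4000 UMIs, for vehicle before and after depletion and tamoxifen before and after.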
